A study of Oryctolagus cuniculus with 6 samples.

Results

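ATP8, ATP6 and CYTB (cytochrome b) are protein-coding genes of the vertebrate mitochondrial genome, and their RNA was measured here in adult rabbit (Oryctolagus cuniculus) left ventricle, the main pumping chamber of the heart. They are 3 of the 23669 gene IDs in the count tables: ENSOCUG00000029101 (ATP8), ENSOCUG00000029102 (ATP6) and ENSOCUG00000029115 (CYTB). The tables pair no ID with a name or a chromosome. The names rest on place: the 3 IDs stand at places 21, 22 and 35 of a run of 37 consecutive IDs, and they carry the names that vertebrate mitochondrial gene order gives those places. All 6 libraries came from animals 3 weeks after a sham operation, in which a suture was placed loosely around a coronary artery without blocking its flow, and the labels give a single group with no other genotype, treatment or strain. Of the adult animals the labels give neither age in numbers nor sex, and they do not tie each library to an animal, so the p-values given here reflect only how much the libraries vary, which can include technical variation. The titles carry the number prefixes 13872 and 14285, with 3 libraries each, whose meaning is not stated. Libraries are numbered 1 to 3 (13872) and 4 to 6 (14285) in accession order.

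ATP6 and ATP8 encode subunits of ATP synthase (complex V of oxidative phosphorylation), which makes ATP from the proton gradient across the inner mitochondrial membrane. ATP6 forms part of the path that protons take through the membrane, and ATP8 is a short membrane protein beside it. In vertebrates the end of the ATP8 reading frame overlaps the start of ATP6 on the same strand, and both are read from a shared transcript. CYTB encodes the haem-bearing core subunit of complex III, which passes electrons from ubiquinol to cytochrome c. Heart muscle is rich in mitochondria and draws most of its ATP from this chain.

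The libraries held 25427072 to 34882484 fragments each, of which 9829581 to 12514152 were counted on genes in the strand column used (own strand). Levels are given as CPM, in which each library's gene counts sum to the same total. They are not scaled for gene length, so levels of different genes are not compared. The limit that a count of 0 allows, 3 counts, was 0.240 to 0.305 CPM. Intervals and limits cover counting error only. None of the IDs matched a symbol in the reference table provided, so markers of ventricular muscle, of atrial muscle or of other cell types could not be looked up, and the labelled tissue was not checked. The bulk level of a gene does not by itself tell apart fewer cells of a type, fewer mitochondrial genomes per cell and less RNA per genome. None of these was tested.

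The names by place were set against the strands of the counts. In vertebrate mitochondria, ND6 and 8 tRNAs lie on the light strand and the other genes on the heavy strand. A fragment copied from a long heavy-strand transcript is counted on the own strand of a heavy-strand gene and on the other strand of a light-strand gene. Of the 37 IDs, 24 had 10 or more counts on both strands together over the 6 libraries. All 16 of these at heavy-strand places, the 3 members included, had more counts on their own strand. All 8 at light-strand places had more counts on the other strand, summed over the libraries. The margin was small at ND6, with 2314 counts on the other strand and 2076 on its own, and in libraries 2, 3, 4 and 5 its own strand had more. The ID at the place of tRNA-Gln had more on its own strand in libraries 2 and 3 (39 against 24, and 31 against 17). Among the IDs with fewer counts, that at the heavy-strand place of tRNA-Met went against its place, with 5 other-strand and 2 own-strand counts. The minimum of 10 was set with these values known.

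ATP6 was abundant in some libraries and close to absent in others. It had 36038 own-strand counts in library 1, 48 in library 2, 27 in library 3, 44847 in library 4, 56 in library 5 and 65150 in library 6. In CPM these were 3208, 4.88, 2.19, 4101, 5.24 and 5206. Libraries 1, 4 and 6 were high and libraries 2, 3 and 5 low, and both prefixes held libraries of each kind. ATP6 took 0.521% of gene counts in library 6 (Wilson 95% interval 0.517% to 0.525%). Its level in library 6 was 2381-fold that of library 3, with an exact interval of 1637 to 3614. In order of count, which grows with gene length, ATP6 stood 17th, 13th and 13th of all IDs in libraries 1, 4 and 6. It stood at ranks 9174, 10766 and 8998 in libraries 2, 3 and 5.

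CYTB followed the same pattern. Its own-strand counts were 25153, 45, 28, 30798, 55 and 51412 in libraries 1 to 6. In CPM these were 2239, 4.58, 2.27, 2816, 5.15 and 4108. The high libraries were again 1, 4 and 6, and the lowest of them stood 435-fold above the highest of the others. Library 6 exceeded library 3 by 1812-fold (exact interval 1254 to 2727). By count, CYTB ranked 31, 26 and 15 in libraries 1, 4 and 6 and between 9037 and 10718 in libraries 2, 3 and 5.

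ATP8, the shortest of these frames in vertebrates, had far fewer counts. Libraries 1, 4 and 6 held 1502, 1556 and 1980, which are 134, 142 and 158 CPM. Library 2 held 1 count, and libraries 3 and 5 held 0. A count of 0 allows up to 0.243 CPM in library 3 and up to 0.281 CPM in library 5. Library 6 was thus at least 651-fold higher than library 3 and at least 564-fold higher than library 5. Against the 1 count of library 2 the ratio was 1555, with an exact interval of 279 to 61460. The libraries that were high and low for ATP8 were those that were high and low for ATP6 and CYTB.

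**Figure D1:**
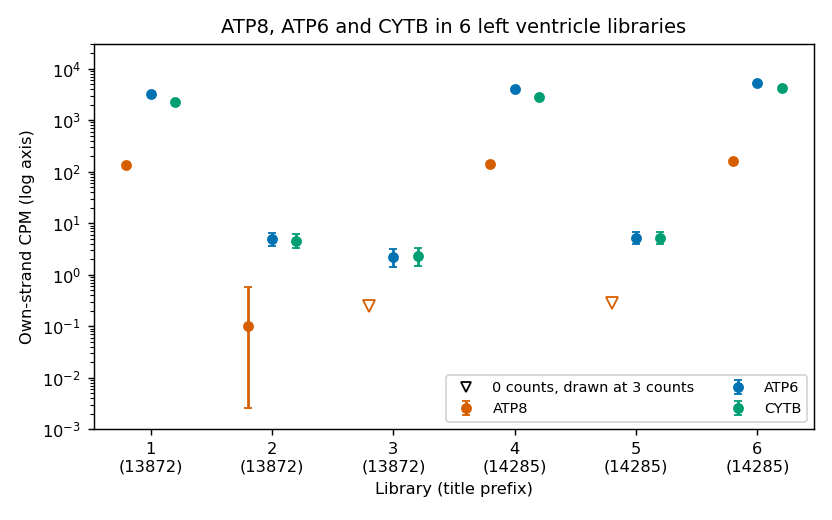
Own-strand CPM of ATP8, ATP6 and CYTB on a log axis in each of the 6 libraries, with the title prefix in brackets; bars are exact Poisson 95% intervals of the counts, and open triangles mark 0 counts, drawn at 3 counts. Libraries 1, 4 and 6 lie at 134 to 5206 CPM and libraries 2, 3 and 5 at 5.24 CPM or less.

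Together the members took 0.558%, 0.706% and 0.947% of gene counts in libraries 1, 4 and 6. In libraries 2, 3 and 5 they amounted to 94, 55 and 111 counts in all. As mean ± SD over the 6 libraries, the levels were 72.4 ± 79.6 CPM for ATP8, 2088 ± 2369 CPM for ATP6 and 1529 ± 1777 CPM for CYTB. Each SD exceeds its mean, so the mean describes no library. On the log2 scale of TMM-normalized CPM (scaled by edgeR's trimmed mean method, prior count 2), the SD was 5.21 for ATP8, 5.54 for ATP6 and 5.30 for CYTB. The median SD over the 9277 IDs that averaged at least 5 CPM was 0.226. Among these IDs, ATP6 had the 3rd, CYTB the 4th and ATP8 the 6th largest SD. The SD of ATP8 rests on 1, 0 and 0 counts in libraries 2, 3 and 5. It was 6.13 with a prior count of 0.5, so it depends on the prior count.

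Within libraries 1, 4 and 6 the members differed by much less. ATP6 in library 6 was 1.62-fold that of library 1 (exact interval 1.60 to 1.64) and 1.27-fold that of library 4. CYTB in library 6 was 1.84-fold that of library 1 (1.81 to 1.86) and 1.46-fold that of library 4. ATP8 in library 6 was 1.18-fold that of library 1 (1.11 to 1.27) and 1.11-fold that of library 4 (1.04 to 1.19). All 3 members were highest in library 6 and lowest of the high libraries in library 1. The steps exceed counting error, but no test between these libraries was made. The labels give them no difference other than the prefix and the library number in the title.

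ATP8 and ATP6 are expected on a shared transcript, so their counts were set against each other in each library. The share measures counts, not molecules, because the frames differ in length. ATP8 made up 4.001% of the pair's counts in library 1 (Wilson 95% interval 3.81% to 4.204%). The share was 3.35% in library 4 (3.19% to 3.52%) and 2.95% in library 6 (2.82% to 3.08%). These intervals do not overlap, so the ATP8 share of the pair's counts differed between the 3 libraries by more than counting error. Fragments that touched both frames are in neither count, and their part in this difference was not tested. In library 2 the share was 1 of 49 counts, or 2.04% (0.361% to 10.7%). Library 3 had 0 of 27, which allows up to 11.1%, and library 5 had 0 of 56, which allows up to 5.36%. A difference of these libraries from 1, 4 and 6 was not detectable at this depth.

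CYTB lies far from the ATP8 and ATP6 frames in the gene order, with 12 places between ATP6 and CYTB. The ratio of CYTB to ATP6 counts was 0.698 in library 1 (exact 95% interval 0.687 to 0.709), 0.687 in library 4 (0.677 to 0.697) and 0.789 in library 6 (0.780 to 0.798). Libraries 1 and 4 overlapped, and library 6 lay above both. The low libraries gave 0.938 (0.610 to 1.44) in library 2, 1.04 (0.589 to 1.83) in library 3 and 0.982 (0.665 to 1.45) in library 5. All 3 of these ratios lie above those of libraries 1, 4 and 6, while each of their intervals includes the ratios of all 3 high libraries. The difference was not tested.

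**Figure D2:**
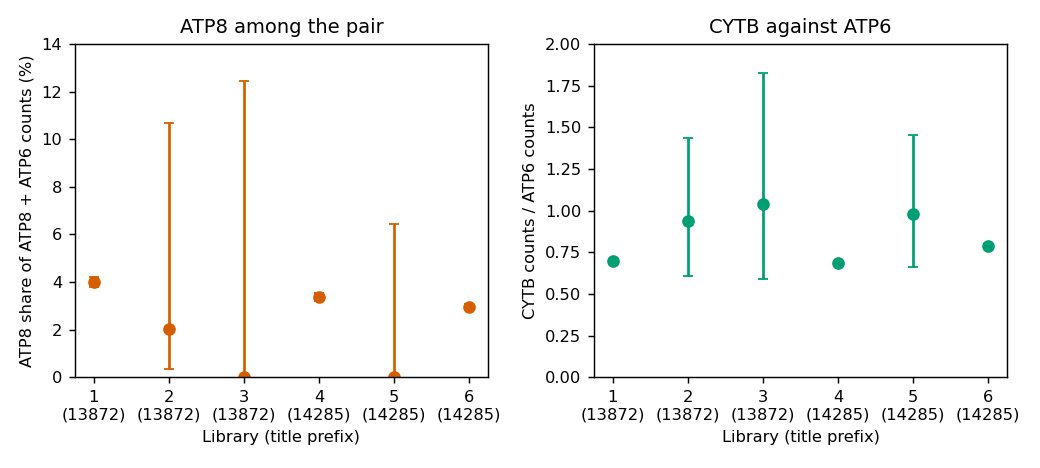
Left, ATP8 counts as a percentage of ATP8 plus ATP6 counts in each library, with Wilson 95% intervals; right, CYTB counts divided by ATP6 counts, with exact 95% intervals. Libraries 1, 4 and 6 have narrow intervals, and libraries 2, 3 and 5, with 27 to 56 ATP6 counts, have wide ones.

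Fragments that touch more than 1 gene are counted on none and fall in a row of ambiguous fragments, which bears on ATP8 and ATP6 because their frames overlap. In the own-strand column this row held 33740 fragments in library 1, 5707 in library 2, 7632 in library 3, 28827 in library 4, 5125 in library 5 and 37037 in library 6. As a share of all fragments these were 0.117%, 0.0214%, 0.0219%, 0.113%, 0.0191% and 0.124%. The libraries high for the members were also high for ambiguous fragments, without overlap. The row covers all genes and does not say which genes a fragment touched. How many of its fragments lay on the ATP8 and ATP6 frames was therefore not measured, and the members' counts leave these fragments out. For each ATP8 count there were 22.5, 18.5 and 18.7 ambiguous fragments in libraries 1, 4 and 6. For each ATP6 count there were 0.936, 0.643 and 0.568. Library 1 was the highest of the 3 by both measures.

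Between the prefixes, the ambiguous share was 0.0533% ± 0.0549 (SD, n = 3) under 13872 and 0.0853% ± 0.0576 (SD, n = 3) under 14285. The exact two-sided permutation p was 0.7, where 3 libraries against 3 cannot go below 0.1. The libraries of the prefixes overlapped.

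**Figure D3:**
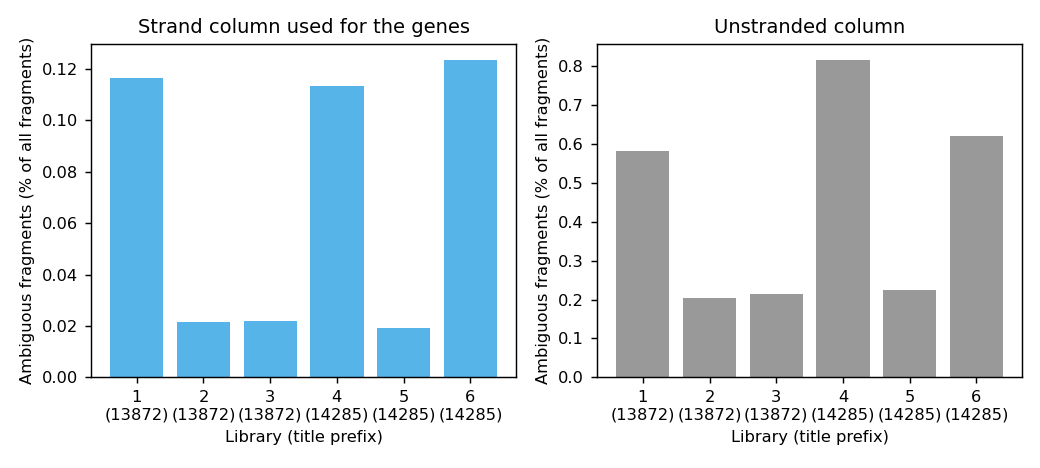
Ambiguous fragments as a percentage of all fragments in each library, left in the strand column used for the genes and right in the unstranded column; bars start at 0. On both sides libraries 1, 4 and 6 stand above libraries 2, 3 and 5.

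Counting without regard to strand cost ATP8 and ATP6 no fragments. In all 6 libraries their unstranded count equalled the sum of the counts on each strand. CYTB lost 175, 135 and 254 fragments in libraries 1, 4 and 6 and 1 in library 3, which were counted on a strand but not in the unstranded column. A gene loses fragments in this way when they also touch a gene on the opposite strand. The tables do not record which genes these fragments touched. Unstranded levels were 3251, 4154 and 5240 CPM for ATP6 and 2301, 2871 and 4151 CPM for CYTB in the high libraries. ATP8 stood at 136, 144 and 160 CPM in the same column. In libraries 2, 3 and 5 no member exceeded 5.23 CPM.

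The ambiguous row was larger in the unstranded column, with 168454, 54345, 74511, 207562, 60032 and 186286 fragments in libraries 1 to 6. The members added little to this. The ID at the place of tRNA-Ser1, the light-strand gene next to COX1, lost 68572, 119506 and 88113 fragments in libraries 1, 4 and 6. It lost 3712, 5189 and 5392 in libraries 2, 3 and 5.

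Counts on the other strand were few for the members. In libraries 1, 4 and 6 they made up 1.64%, 0.765% and 0.652% of ATP8 counts on either strand, and 1.38%, 0.576% and 0.413% of ATP6 counts. CYTB had a larger other-strand share, 3.42% (Wilson 95% interval 3.21% to 3.65%), 1.64% (1.501% to 1.78%) and 1.27% (1.18% to 1.37%). Among these 3 libraries, each member had its largest share in library 1. Over all genes the other strand took 2.17%, 1.48%, 1.60%, 2.39%, 1.29% and 1.97% in libraries 1 to 6. The ID at the place of tRNA-Ser1 weighed heavily in this. It held 68532, 119493 and 88100 of the 248925, 267925 and 251922 other-strand gene counts in libraries 1, 4 and 6. In libraries 2, 3 and 5 it held 3708, 5188 and 5391 of 147333, 200950 and 139265. In the low libraries the members had 0 to 3 other-strand counts each, too few to rank their shares.

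Among the rRNA and protein-coding IDs of the run, the step between libraries began after COX1. Several tRNA IDs before COX1 also parted the same libraries. That at the place of tRNA-Trp had 3488, 7, 39, 850, 8 and 934 own-strand counts in libraries 1 to 6, and 0 unstranded counts in each. On the other strand, the ID at the place of tRNA-Ala had 100, 0, 0, 94, 1 and 124 counts. That at the place of tRNA-Gln had 148, 24, 17, 175, 29 and 292 there, while its own-strand counts did not part the libraries. The 4 other protein-coding IDs with smaller ranges were COX1, ND1, ND2 and ND6. In these the range from the lowest to the highest library was between 1.97-fold and 23.3-fold (counts under 3 were raised to 3). For 9 of the 13 protein-coding IDs the highest library exceeded the lowest by over 100-fold. These 9 were the 3 members, COX2 and COX3 of complex IV, and ND3, ND4L, ND4 and ND5 of complex I. In the 6 that are not members the range was 669-fold to 2757-fold, and ND5 was the widest. By gene order the 9 lie on the heavy strand at and after the place of COX2. ND6 lies within this stretch at a light-strand place.

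**Figure D4:**
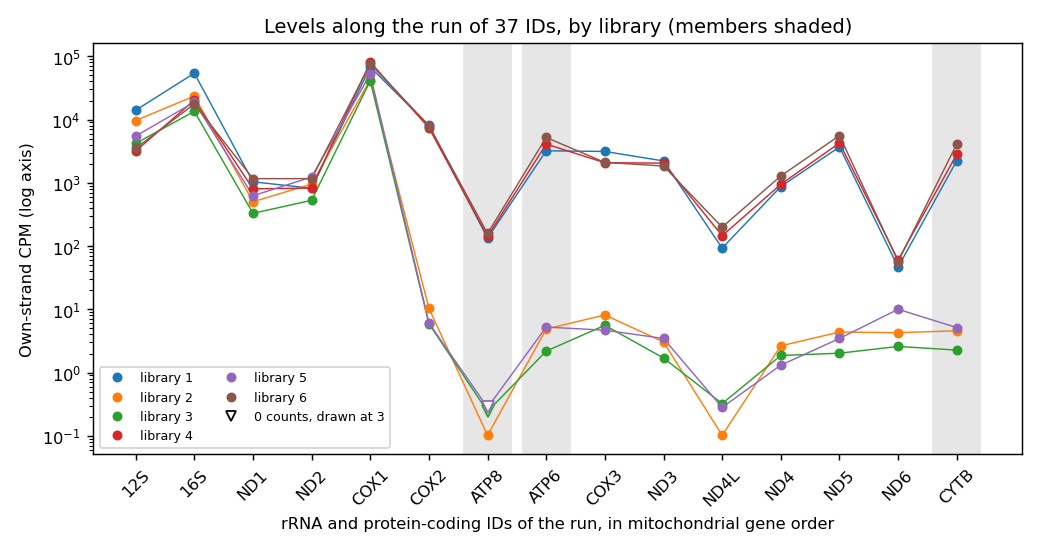
Own-strand CPM on a log axis at the 15 rRNA and protein-coding places of the run, in mitochondrial gene order, with a line for each library and the members shaded; open triangles mark 0 counts, drawn at 3 counts. From 12S to COX1 the libraries stay within 4.43-fold of each other at each place shown, and from COX2 on libraries 2, 3 and 5 lie below libraries 1, 4 and 6 at each place shown.

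ATP6 was also set against the cytochrome c oxidase genes on either side of its frame pair. The ratio of ATP6 to COX3 counts, its neighbour downstream, was 1.02 in library 1 (exact 95% interval 1.01 to 1.04), 1.98 in library 4 (1.94 to 2.01) and 2.48 in library 6 (2.44 to 2.51). In library 2 it was 0.600 (0.411 to 0.869) and in library 3 it was 0.391 (0.241 to 0.619), both below the 3 high libraries. Library 5 gave 1.12 (0.751 to 1.67), which overlaps library 1. ATP6 and COX3 thus did not keep a fixed ratio, even among the libraries that were high for both.

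The ratio of ATP6 to COX2 was 0.396, 0.554 and 0.648 in libraries 1, 4 and 6. In the 3 others it was 0.471 (0.327 to 0.669), 0.370 (0.229 to 0.582) and 0.862 (0.592 to 1.25), in the same order. The ratio of CYTB to ND5, a complex I gene before it in the order, was 0.606, 0.661 and 0.736 in libraries 1, 4 and 6. In libraries 2, 3 and 5 it was 1.05 (0.674 to 1.63), 1.12 (0.630 to 2.003) and 1.49 (0.962 to 2.32). The lower ends for libraries 2 and 3 reach into the range of the high libraries, and that for library 5 does not.

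Against COX1, the step stood out within single libraries. ATP6 had 0.0475, 0.0507 and 0.0686 counts per COX1 count in libraries 1, 4 and 6. The low libraries 2, 3 and 5 had 0.000115, 0.0000532 and 0.0001. COX1 itself had 758043, 418887, 507537, 884017, 557862 and 949890 counts in libraries 1 to 6. It was thus abundant also in the libraries in which the members were near absent, though lower there than in libraries 1, 4 and 6. The run took 12.8% to 16.1% of gene counts in libraries 1, 4 and 6, and 5.96% to 7.84% in the 3 others. The members made up 3.46%, 5.43% and 7.40% of the run's counts in the former and at most 0.0132% in the latter.

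Another measure parted the same libraries, in the direction opposite to the members. Fragments aligned to several places were 6.75%, 7.18% and 6.85% of all fragments in libraries 1, 4 and 6. Libraries 2, 3 and 5 had more, with 8.02%, 7.48% and 8.64%. Such fragments are counted on no gene, and their part in the members' levels was not tested.

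Apart from the library number in the titles, the prefix is the single division the labels give. The members were read from a test over all IDs. ATP8 stood at 44.6 ± 77.2 CPM (SD, n = 3) under 13872 and at 100.2 ± 87.1 CPM under 14285. ATP6 stood at 1072 ± 1850 and 3104 ± 2740 CPM, and CYTB at 749 ± 1291 and 2310 ± 2098 CPM. The log2 fold changes, 14285 over 13872, were 1.20 (SE 1.91) for ATP8, 1.57 (SE 2.39) for ATP6 and 1.66 (SE 2.32) for CYTB. Adjusted p-values were 0.750, 0.738 and 0.712 (edgeR quasi-likelihood test, Benjamini-Hochberg adjustment over 11945 IDs). For each member the difference between the means was smaller than the SD within 14285, and for ATP6 and CYTB it was larger than the SD within 13872. The libraries of the prefixes overlapped for each member.

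At an adjusted p under 0.05, 0 of the 3 members were called in the prefix comparison, and 0 had an unadjusted p under 0.05. Over all IDs tested, edgeR called 5, or 0.0419%, and listed 2511, or 21%, at an unadjusted p under 0.05. DESeq2 called 0 of the 3 members and 505 of 9343 IDs, or 5.41% (1.81% higher and 3.6% lower under 14285). The median log2 fold change was 1.57 over the members and -0.01 over all IDs tested. Library 1 alone kept the 13872 side from being low throughout. Without it the log2 fold changes were 10.90 for ATP8, 9.89 for ATP6 and 9.51 for CYTB, and the adjusted p-values were 0.183, 0.178 and 0.178 (edgeR). With any other library left out they lay between 0.61 and 2.25.

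The IDs most like the members were sought among the 9277 IDs that averaged at least 5 CPM, by Pearson's r of log2 CPM over the 6 libraries, averaged over the 3 members. These correlations are descriptions. With the libraries in a high and a low cluster, each mostly says how well an ID parts the same libraries. The members had r = 0.9999 (ATP6 with CYTB), 0.997 (ATP8 with ATP6) and 0.996 (ATP8 with CYTB) with each other. Within the run, ND5 was the closest (mean r 0.999), followed by ND3 and COX2 (0.998 each). COX1 reached 0.946 and ND1 0.881, while ND2 (0.286), 16S (0.501) and 12S (-0.050) were the least alike.

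Outside the run, the 2 most similar IDs moved by far less than the members. ENSOCUG00000027812 (mean r 0.977) stood at 116, 72.1, 74.9, 99.5, 74.1 and 105 CPM in libraries 1 to 6. ENSOCUG00000005430 (mean r 0.977) stood at 64.4, 58.3, 64.8, 66.1, 58.4 and 61.9 CPM. For the latter, CPM in library 3 exceeded that in libraries 1 and 6, so its CPM did not part the high and low libraries. The r was computed on TMM-normalized values.

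The 2 most opposite IDs moved widely. ENSOCUG00000026762 (mean r -0.989) was low in libraries 1, 4 and 6, at 272, 307 and 317 CPM. In the 3 others it reached 9519, 8811 and 12344 CPM. ENSOCUG00000025982 (mean r -0.979) likewise went from 3.56, 1.28 and 2.24 CPM to 396, 238 and 622 CPM. For both, the libraries that were high were those in which the members were near absent. Of 9260 IDs outside the run, 32 (0.346%) had a mean r over 0.9 and 29 (0.313%) a mean r under -0.9. How many IDs would pass these limits with no link to the members was not determined. The tables pair none of these IDs with a name.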

How the data were processed

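RNA was extracted from left ventricle, depleted of ribosomal RNA and made into stranded libraries, per the labels' protocols. The tables deposited by the authors give raw fragment counts for each Ensembl ID and have the form that STAR writes. The submitters' processing notes name STAR, DESeq2 and the build OryCun2.0. Versions, the annotation release and settings are not given in any source used here. Column 4 is called the own strand, column 3 the other strand and column 2 the unstranded count. The 4 rows that name no gene entered neither library sizes nor tests. Of 23669 IDs, 0 matched the reference table (assembly mOryCun1.1), so gene lists by symbol were not run, and no sequence or length was used here.

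Members and lists were chosen with earlier results of these data known. The text names the members, the rRNA, protein-coding and some tRNA places of the run, and the 2 most similar and 2 most opposite IDs outside it. The ratio partners and the tRNA IDs were picked after values were seen. Prefixes were compared with edgeR 4.0.16 in R 4.3.3 (TMM, filterByExpr, quasi-likelihood test, threshold 0.05), which was tested on simulated data, and single values with exact permutation tests (scipy 1.17.1). Each SE is the size of the log2 fold change divided by the root of its F statistic. Depth was 9829581 to 12514152 gene counts, and Wilson or exact 95% intervals give its precision. Alternatives were DESeq2 1.42.0, edgeR with DESeq2 size factors, unstranded counts, no filter on low counts, the run left out of library sizes, other denominators, prior count 0.5, CPM with no TMM, the SD within prefix and each library left out.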

Additional observations from a re-analysis of the deposited data

How the results depend on the processing

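Under no alternative did a member's prefix change reverse or pass the threshold. The number of IDs called higher under 14285 was 0, against 169 with DESeq2 and 8 with no low-count filter. The number called lower was 5, against 336 and 71 in these fits and 1 to 2 with a library left out, which also leaves fewer samples. With a library left out, the members' log2 changes ranged from 0.61 to 10.90 for ATP8, 0.93 to 9.89 for ATP6 and 0.91 to 9.51 for CYTB, highest without library 1. The mean shares and the ATP8 share of the pair moved by less than the spread between libraries under each setting run. For the mean shares this says little, because each SD exceeds its mean and no fall could exceed it. On the log2 scale, prior count 0.5 took the SD of ATP8 from 5.21 to 6.13. Those of ATP6 and CYTB went from 5.54 to 5.58 and from 5.30 to 5.33. ATP8 thus went from the smallest of the 3 SDs to the largest, and its SD depends on the prior count. Taken of all fragments, the mean share was 0.00299% for ATP8 (0.00724% of gene counts), 0.0865% for ATP6 (0.209%) and 0.0633% for CYTB (0.153%). For the ATP8 share of the pair, the spread (SD 1.72) includes the shares of 0 in libraries 3 and 5. No paired analysis was run. The title numbers 3 and 5 recur under both prefixes, but their meaning is not stated. No other label ties a library under 13872 to a library under 14285. Depth limits the ATP8 share and all ratios in libraries 2, 3 and 5, which rest on 27 to 56 ATP6 counts.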

Other observations

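The small counts left in libraries 2, 3 and 5 were set against the levels of high libraries. As a percentage of the CPM in library 6, ATP6 stood at 0.0938% in library 2, 0.042% in library 3 and 0.101% in library 5, and CYTB at 0.111%, 0.0552% and 0.125%. For COX3, another of the 9 protein-coding IDs with a range over 100-fold, the values were 0.387%, 0.266% and 0.223%. For ND5 they were 0.0784%, 0.0363% and 0.062%. Against library 1 the values were 0.152%, 0.0682% and 0.163% for ATP6, 0.204%, 0.101% and 0.230% for CYTB and 0.260%, 0.179% and 0.150% for COX3. In library 5, COX3 thus stood above ATP6 and CYTB against library 6 and below them against library 1. The library 5 values rest on 50 COX3, 56 ATP6 and 55 CYTB counts. The ratio of ATP6 to COX3 there, 1.12 (exact interval 0.751 to 1.67), has an interval that includes the 1.02 of library 1. The order of COX3 and ATP6 against library 1 is therefore within counting error. COX3 and ND5 were picked after their values were seen.

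The IDs beside CYTB parted the libraries in the same way. The ID at the place of tRNA-Thr, after CYTB, had 303, 71 and 114 own-strand counts in libraries 1, 4 and 6. It had 0, 0 and 1 in libraries 2, 3 and 5. The ID at the place of tRNA-Glu, before CYTB, was counted on the other strand, with 48, 46 and 90 counts in libraries 1, 4 and 6 and 0 in each of the others. The ID at the place of tRNA-Lys, before ATP8, had no count on either strand in any library. Dixon's test for a single outlying library was run on 25 measures and marked 0 of them; it does not detect a split into 3 and 3.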
